A study of Mus musculus with 12 samples.

Results

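Emx1, Fezf2, Tbr1, Neurod2, Neurod6, Cux2, Lhx2 and Rtn4r were followed across the brains of mice given chronic stress, krill oil, both or neither. The 8 genes were taken by symbol from the 55385 genes of the deposited expression table: 7 transcription factors of the projection neurons of the cerebral cortex, and the neuronal Nogo receptor gene Rtn4r. Each of the 8 was found once in the table and passed the filter on low values, which left 21393 genes for testing. All mice were wild-type male C57/BL6J mice, bought at 8 weeks of age, and differed only in oil and stress. C_W mice were unstressed and received water by gavage, C_O mice were unstressed and were gavaged for 5 weeks with krill oil, 200 mg/kg each day, MS_W mice went through 4 weeks of chronic unpredictable mild stress (CUMS) on water, and MS_O mice had both CUMS and krill oil. There were 3 mice per group, each a separate animal drawn from a larger group, and each gave 1 library of poly(A) RNA from the brain. The gavage control was water and not another oil, so krill oil and oil in general cannot be told apart.

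The pallium, the dorsal part of the embryonic forebrain, gives rise to the glutamatergic projection neurons of the cerebral cortex and hippocampus. Emx1 and Lhx2 mark pallial progenitors and specify dorsal telencephalic identity. Tbr1 and Fezf2 set the identity of deep-layer neurons, with Tbr1 favouring corticothalamic cells and Fezf2 favouring subcerebral cells such as corticospinal neurons. Cux2 marks the upper cortical layers, whose cells connect one cortical area with another. Neurod2 and Neurod6 are basic helix-loop-helix factors of differentiating and mature pallial neurons, and Neurod2, with its relative Neurod1, is also used by the granule cells of the cerebellum. Rtn4r encodes a receptor held in the membrane of forebrain neurons by a lipid anchor. It binds the myelin proteins Nogo-A (Rtn4), MAG (Mag) and OMgp (Omg), signals with co-receptors such as Lingo1 and Ngfr to the GTPase RhoA, and restrains axon growth and plasticity.

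The promoters of Neurod2, Neurod6 and Rtn4r are shown because the ratio of the 2 NeuroD genes differed between libraries and Rtn4r was the most abundant of the 8. Each sequence is the 250 bases before the RefSeq start site on build GRCm38.p6, written 5′ to 3′ on the strand of the gene, with the E-box CAGATG, the form of site that NeuroD factors bind, in capitals. The Neurod2 window is chr11:98329646-98329895 on the minus strand, the Neurod6 window is chr6:55681264-55681513 on the minus strand, and the Rtn4r window is chr16:18127392-18127641 on the plus strand.
Neurod2: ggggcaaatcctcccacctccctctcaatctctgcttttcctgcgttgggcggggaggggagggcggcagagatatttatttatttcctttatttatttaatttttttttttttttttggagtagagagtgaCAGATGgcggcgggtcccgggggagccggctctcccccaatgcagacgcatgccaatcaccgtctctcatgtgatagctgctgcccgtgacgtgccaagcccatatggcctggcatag
Neurod6: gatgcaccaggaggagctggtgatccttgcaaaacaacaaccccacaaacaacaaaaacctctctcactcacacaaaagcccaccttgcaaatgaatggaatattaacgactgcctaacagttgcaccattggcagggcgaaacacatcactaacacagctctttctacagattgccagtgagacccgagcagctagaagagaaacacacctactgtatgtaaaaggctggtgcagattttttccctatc
Rtn4r: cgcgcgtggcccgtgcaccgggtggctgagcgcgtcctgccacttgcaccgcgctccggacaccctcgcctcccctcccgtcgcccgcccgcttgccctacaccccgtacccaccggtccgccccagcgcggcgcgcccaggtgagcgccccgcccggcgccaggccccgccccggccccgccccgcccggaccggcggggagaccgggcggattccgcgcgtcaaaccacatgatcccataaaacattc
The G and C content was 52.8% in the Neurod2 window, 46% in the Neurod6 window and 77.2% in the Rtn4r window. On either strand, CAGATG was present once in the Neurod2 window, 118 bases before the start, and in neither of the other windows shown. All 8 genes had a window in the RefSeq table, 10 windows in all because Cux2 and Lhx2 have an alternative start. CAGATG was present in 2 of the 10 windows, those of Neurod2 and the second start of Cux2, against 14.4% of 32851 mouse windows of this length. The E-box CAGCTG was in none of the 10 windows and in 13% of all windows. The homeodomain core TAATTA was in 1 of the 10 windows, that of Tbr1, in 2 copies, and in 4.84% of all windows. No match of one motif overlapped a match of another in these windows, and a match is a description of the letters only.

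Levels are given as FPKM, the number of fragments scaled to transcript length and to the fragments mapped in the library, which allows genes of different length to be set side by side. A log2 fold change (log2FC) is the difference between 2 groups in the mean of log2(FPKM + 1), first group minus second, which understates the change of genes of low FPKM. The total of estimated counts was 50912906 to 75678721 per library, and it was 69768244 to 75678721 in C_W against 51748181 to 61608502 in MS_W. This gap in depth goes with the stress comparison on water, and its part in the results was not tested. In bulk tissue, fewer cells of a type and less RNA per cell cannot be told apart.

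2 libraries, C_O72 and MS_W95, were unlike the rest. Their log2 profiles correlated with each other at r = 0.970 and with no other library above 0.937, while the other 10 correlated with one another at 0.959 or more. The summed FPKM of 10 cerebellar genes was 349 in C_O72 and 1179 in MS_W95, against 55.9 to 71.2 in the other 10 libraries. Gabra6, a receptor subunit that defines cerebellar granule cells, was 23.9 in C_O72 and 91.3 in MS_W95 and at most 0.129 FPKM elsewhere. The summed FPKM of 11 hindbrain genes, among them 9 Hox genes, was 89.3 in C_O72 and 32.7 in MS_W95, against at most 0.0979 elsewhere. In the opposite direction, the sum of 19 cortical effector genes such as Camk2a and Nrgn was 329 in C_O72 and 442 in MS_W95, against 1197 to 2217 elsewhere. The tissue is labelled as brain and described as whole brain, but the hindbrain genes and the cerebellar genes Gabra6, Cbln3, Pcp2 and Fat2 were near 0 in 10 libraries, and cortical markers were low in the other two. The cerebellar sum of those 10 libraries came mostly from genes such as Calb1, Itpr1, Cbln1 and Zic1, which other brain regions also express. Every comparison of the 8 genes is therefore given over all 12 libraries and again over the 10 without C_O72 and MS_W95, and the part of tissue composition in the results was not tested.

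The forebrain factors followed the same division. In C_O72 and MS_W95, Fezf2 was 0.555% and 0.235% of its median over the other 10 libraries, Tbr1 was 1.05% and 1.44%, and Emx1 was 1.44% and 3.59%. Lhx2 was 8.01% and 8.83% of that median, Neurod6 was 11.7% and 10.6%, and Rtn4r was 20.8% and 30.7%. Cux2 kept 55.6% and 48.9%. Neurod2 was the exception, at 56.6% of the median in C_O72 and 146% in MS_W95, the highest of its 12 values. The deep-layer factors and Emx1 were thus nearest to absence in these 2 libraries, and Neurod2 and Cux2 were the best kept.

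**Figure D1:**
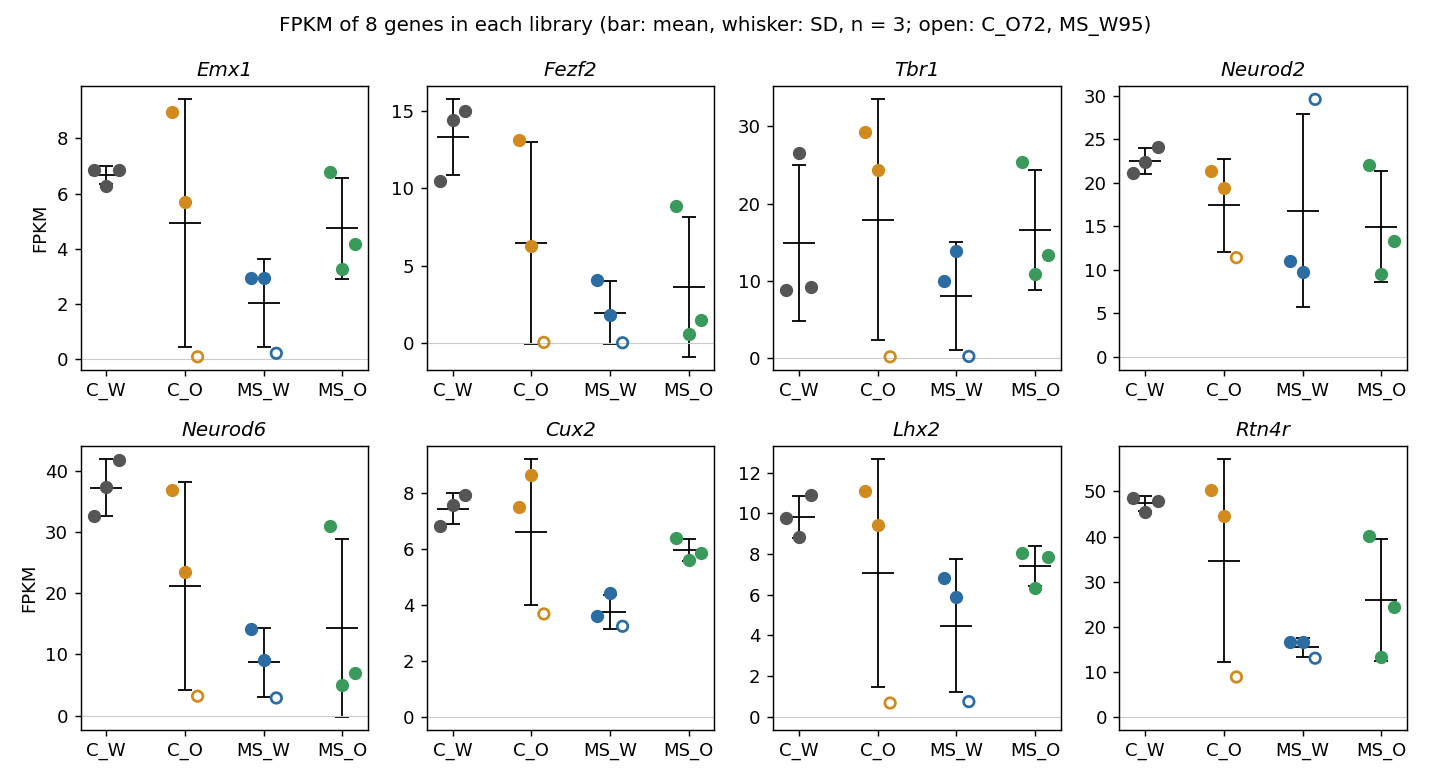
FPKM of each of the 8 genes (vertical axis) in the 4 groups; each point is 1 library, the bar is the group mean and the whisker the SD (n = 3), and open points are C_O72 and MS_W95. The 3 C_W libraries of Rtn4r sit between 45.5 and 48.6 and the 3 MS_W libraries between 13 and 16.6, and Neurod2 is highest in MS_W95, at 29.6.

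In unstressed mice on water, Rtn4r was the most abundant of the 8, at 47.3 ± 1.65 FPKM (SD, n = 3). Neurod6 followed at 37.3 ± 4.61 and Neurod2 at 22.5 ± 1.51, and the ranges of these 3 genes did not overlap. Tbr1 at 14.8 ± 10.1, Fezf2 at 13.3 ± 2.47 and Lhx2 at 9.83 ± 1.02 came next. The range of Tbr1 overlapped those of Neurod2, Fezf2 and Lhx2, and the range of Fezf2 overlapped that of Lhx2. Cux2 at 7.43 ± 0.57 and Emx1 at 6.67 ± 0.335 were lowest and overlapped each other. Tbr1 thus had the widest spread within C_W. In MS_W the order changed, with Neurod2 first at 16.8 ± 11.1 FPKM through MS_W95, Rtn4r second at 15.4 ± 2.11 and Fezf2 last at 1.96 ± 2.02.

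The MS_W vs. C_W comparison asks what stress did to these genes in mice on water. The 8 were chosen with earlier results of these data known, so the shares of all genes beside their counts are a description only. All 8 had a lower mean in MS_W than in C_W, where 37.9% of all 21393 genes had a negative log2FC. The median log2FC of the 8 was −1.40, against 0.06 over all genes. None passed a Benjamini-Hochberg adjusted p of 0.05 in limma, where 1 gene of 21393 (0.00467%) was called, and none passed in edgeR. In DESeq2, 1 of the 8, Cux2, passed, against 1.87% of all genes. At an unadjusted p under 0.05, 4 of the 8 were lower, against 3.79% of all genes. The criteria of the study were an unadjusted p under 0.05 with more than a doubling or halving of the mean FPKM. Here the p came from limma, while the paper used Ballgown, so these genes need not be those the paper called. By these criteria 3 of the 8 were lower, Fezf2, Neurod6 and Rtn4r, against 2.1% of all genes. In 6 of the 8, all but Tbr1 and Neurod2, every MS_W library was below every C_W library, against 8.22% of all genes. The count by the criteria of the study was 1 without C_W64, C_W70 or MS_W95 and 5 without C_O72.

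Over the 10 libraries without C_O72 and MS_W95 the median log2FC was −1.0, against 0.05 over 21171 genes. Here 1 of the 8, Cux2, was lower at an adjusted p of 0.0184, against 1.18% of all genes called in either direction. By the criteria of the study, 5 were lower, Emx1, Fezf2, Neurod2, Neurod6 and Rtn4r, against 2.33% of all genes. The ranges did not overlap for 7 of the 8, all but Tbr1, against 13.8% of all genes. The lower levels in MS_W were therefore present with and without MS_W95, but in this form C_W is set against 2 mice, MS_W31 and MS_W75.

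Those 2 libraries also carried more RNA of striatal and hypothalamic genes than C_W did. The summed FPKM of 9 striatal genes was 707 in MS_W31 and 1013 in MS_W75, against 95.7 to 184 in C_W and 153 in MS_W95. This striatal sum was also 269, 452 and 136 in C_O15, C_O30 and C_O72, and 592, 434 and 378 in MS_O13, MS_O46 and MS_O78. The sum of 10 hypothalamic genes was 127 in MS_W31 and 117 in MS_W75, against 3.66 to 13 in C_W and 6.22 in MS_W95. It was 2.74 to 20.6 in C_O and 12.1 to 58.3 in MS_O. In MS_O46 and MS_O78 most of this sum was Trh, at 37.4 of 40.8 and 53 of 58.3 FPKM. Avp was 32.3 and 59.3 in MS_W31 and MS_W75, against 0.916 and 2.1 in MS_O46 and MS_O78. The cortical effector genes summed to 1221 and 1251 FPKM in MS_W31 and MS_W75, against 1953 to 2217 in C_W. The 8 pan-neuronal genes summed to 1233 and 1275 there, against 1394 to 1475 in C_W. The part of these regional differences in the lower levels of the 8 genes was not tested.

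**Figure D2:**
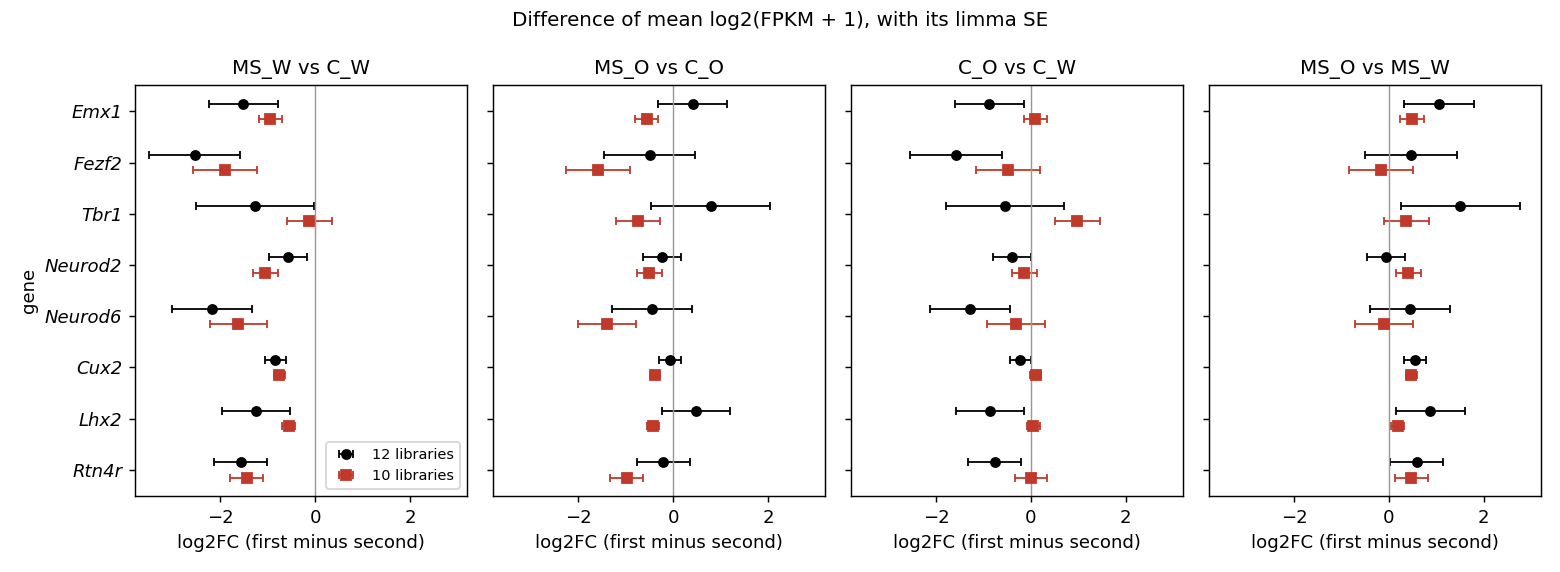
Difference of mean log2(FPKM + 1) for each gene in the 4 comparisons (horizontal axis, log2FC with its limma SE), over 12 libraries (circles) and over the 10 without C_O72 and MS_W95 (squares). In the MS_W vs C_W panel all 8 genes lie below 0 in both forms, while in the C_O vs C_W panel Emx1, Tbr1, Cux2, Lhx2 and Rtn4r cross from below 0 to 0 or above when the pair of libraries is left out.

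Emx1 (ENSMUSG00000033726, chr6:85187438-85204462, plus strand), a homeobox gene of pallial progenitors and of the projection neurons they form, was 6.87, 6.29 and 6.86 FPKM in C_W. It was 2.96 in both MS_W31 and MS_W75 and 0.215 in MS_W95, so that MS_W lay wholly below C_W. The log2FC was −1.52 (SE 0.728, adjusted p = 0.489 in limma), and −0.95 (SE 0.245, adjusted p = 0.121) over 10 libraries. On krill oil it was 8.97, 5.71 and 0.0863 in C_O and 6.79, 3.26 and 4.16 in MS_O, which overlapped.

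Lhx2 (ENSMUSG00000000247, chr2:38339281-38369733, plus strand), a LIM-homeobox gene that acts beside Emx1 in cortical patterning, was 9.75, 8.84 and 10.9 FPKM in C_W. It was 6.8, 5.91 and 0.746 in MS_W, below every C_W library, and 11.1, 9.41 and 0.677 in C_O. MS_O held 8.07, 6.31 and 7.87. For MS_W vs C_W the log2FC was −1.25 (SE 0.72, adjusted p = 0.555), and −0.56 (SE 0.132, adjusted p = 0.101) over 10 libraries. The antisense genes Gm13584 and Gm27197 lie within Lhx2 and reached at most 0.377 and 0.984 FPKM. Whether the strand of a read was used in counting is not given in the sources used here, so their reads and those of Lhx2 may not be fully apart.

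Fezf2 (ENSMUSG00000021743, chr14:12342094-12345959, minus strand), the zinc finger factor of subcerebral projection neurons, had the widest span of the 8 in fold terms. It was 10.5, 14.4 and 15 FPKM in C_W and 4.05, 1.83 and 0.0177 in MS_W, a mean 6.78-fold lower in MS_W. The log2FC was −2.54 (SE 0.96, adjusted p = 0.412), and −1.91 (SE 0.679, adjusted p = 0.24) over 10 libraries. On krill oil, C_O held 13.1, 6.25 and 0.0419 FPKM and MS_O held 8.85, 0.597 and 1.48. MS_O13 was thus above C_O30 and the other two MS_O libraries were below it.

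Tbr1 (ENSMUSG00000035033, chr2:61802930-61814114, plus strand), the T-box factor of corticothalamic neurons, was 8.82, 26.5 and 9.18 FPKM in C_W, so that 1 of the 3 C_W mice was far above the other two. MS_W held 9.97, 13.9 and 0.196, within and below that span, with a log2FC of −1.27 (SE 1.25, adjusted p = 0.702). Over 10 libraries the log2FC was −0.13 (SE 0.474, adjusted p = 0.919), the smallest difference of the 8. C_O held 29.3, 24.3 and 0.143 FPKM and MS_O held 25.4, 10.9 and 13.4. The ratio of Tbr1 to Emx1 FPKM was 1.28 and 1.34 in C_W1 and C_W70 and 4.22 in C_W64, and it was 3.22 to 4.69 in the other libraries apart from C_O72 at 1.65 and MS_W95 at 0.909.

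Neurod6 (ENSMUSG00000037984, chr6:55677822-55681263, minus strand) was 32.6, 37.4 and 41.8 FPKM in C_W and 14.1, 9.15 and 2.9 in MS_W. The groups did not overlap, and the mean was 4.28-fold lower in MS_W. The log2FC was −2.18 (SE 0.846, adjusted p = 0.425), and −1.62 (SE 0.608, adjusted p = 0.259) over 10 libraries. On krill oil it was 36.9, 23.5 and 3.19 in C_O and 31, 4.95 and 6.99 in MS_O, again with 1 high MS_O library.

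Neurod2 (ENSMUSG00000038255, chr11:98325415-98329648, minus strand), the close relative of Neurod6 whose promoter held the E-box, was 21.1, 22.4 and 24.1 FPKM in C_W. It was 11 and 9.78 in MS_W31 and MS_W75, but 29.6 in MS_W95, so the groups overlapped only through that library. The log2FC was −0.57 (SE 0.402, adjusted p = 0.608) over 12 libraries and −1.05 (SE 0.264, adjusted p = 0.116) over 10. C_O held 21.4, 19.4 and 11.4, and MS_O held 22, 9.55 and 13.3. The ratio of Neurod6 to Neurod2 was 1.55 to 1.74 in C_W, 0.936 to 1.28 in MS_W31 and MS_W75, and 0.098 in MS_W95. It was 1.72, 1.21 and 0.279 in C_O and 1.41, 0.518 and 0.526 in MS_O, so it was low in C_O72 and MS_W95 and also in MS_O46 and MS_O78, whose cerebellar sums were 55.9 and 60.8 FPKM. Neurod1, which cerebellar granule cells use with Neurod2, was 70.9 FPKM in MS_W95 and 20.7 in C_O72, against 1.89 to 4.91 in the other 10 libraries. Cbln3, a secreted granule cell protein, was 222 and 60.9, against at most 0.196. The part of cerebellar RNA in the Neurod2 values was not tested.

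**Figure D3:**
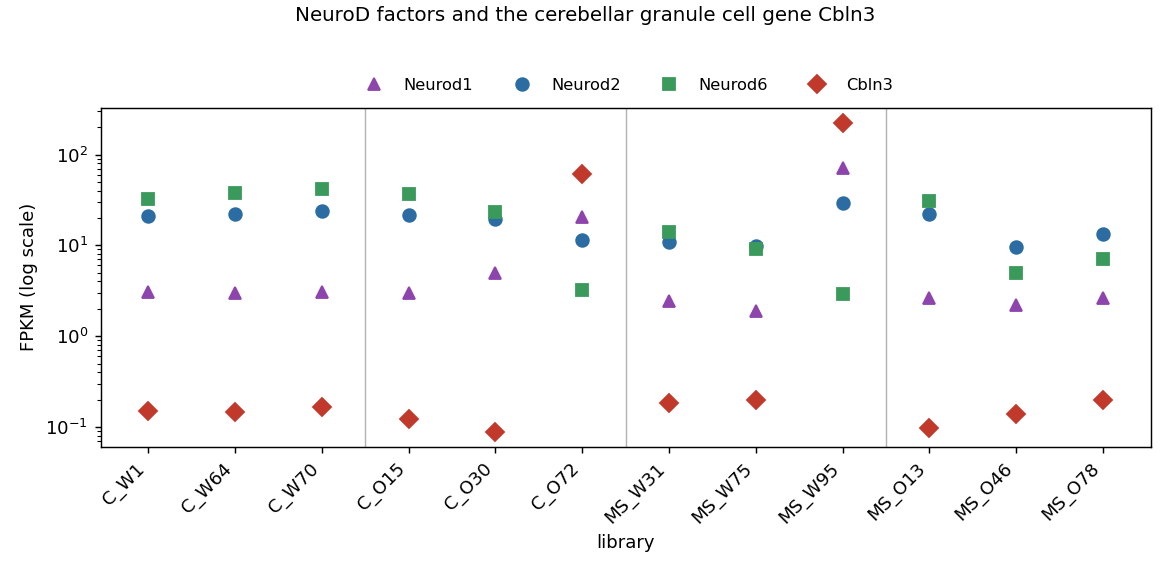
FPKM of Neurod1, Neurod2, Neurod6 and the cerebellar granule cell gene Cbln3 (vertical log axis) in each of the 12 libraries, with lines between the 4 groups. Cbln3 and Neurod1 are high in C_O72 and MS_W95, where Neurod6 is at 3.19 and 2.9, and Neurod2 is at 11.4 and 29.6.

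Cux2 (ENSMUSG00000042589, chr5:121856366-122050102, minus strand), the homeobox gene of upper-layer neurons, had the smallest p of the 8 in this comparison. It was 6.81, 7.56 and 7.92 FPKM in C_W and 3.58, 4.42 and 3.23 in MS_W, where MS_W95 was little below the other two. The mean was 1.99-fold lower in MS_W, with a log2FC of −0.84 (SE 0.228, adjusted p = 0.287). Over 10 libraries it was the only one of the 8 to pass, with a log2FC of −0.76 (SE 0.112, adjusted p = 0.0184 in limma). On krill oil it was 7.49, 8.62 and 3.67 in C_O and 6.39, 5.61 and 5.85 in MS_O. All 3 MS_O values lay above all 3 MS_W values, which held for 4.64% of all genes. They also lay below all 3 C_W values, but the share of all genes for which that held was not computed. The antisense genes Gm15637 and Gm3970, which overlap Cux2, reached at most 0.0711 and 0.0001 FPKM.

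Rtn4r (ENSMUSG00000043811, chr16:18127642-18152408, plus strand) was 48.6, 45.5 and 47.9 FPKM in C_W and 16.6, 16.6 and 13 in MS_W. The 2 groups did not overlap, with a mean 3.07-fold lower in MS_W. The log2FC was −1.57 (SE 0.559, adjusted p = 0.382), and −1.45 (SE 0.345, adjusted p = 0.102) over 10 libraries. C_O held 50.4, 44.6 and 8.83, and MS_O held 40.1, 13.2 and 24.3. When only the 6 C_W and MS_W libraries were fitted, so that the spread within C_O and MS_O did not enter, Rtn4r was lower at an adjusted p of 0.0105, the only one of the 8 to pass, against 0.566% of all genes.

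Of the 3 ligand genes none met the criteria of the study, and the median log2FC for MS_W vs C_W was −0.15 over 12 libraries and 0.03 over 10. Rtn4, which encodes Nogo-A, was 57 to 73.1 FPKM in C_W and 44.4 to 67.2 in MS_W. Mag, an oligodendrocyte gene, and Omg had log2FC values of 0.32 and −0.27. Among the receptors and co-receptors, 6 of the 7 in the table passed the filter, none was lower by the criteria of the study, and 1, Ngfr, was higher, against 2.5% of all genes. Ngfr, the p75 neurotrophin receptor, was 0.457 to 0.495 FPKM in C_W and 3.68, 4.1 and 2.43 in MS_W, and also 5.24 in C_O72. Its log2FC was 1.55 (SE 0.46, adjusted p = 0.318), opposite in sign to that of Rtn4r, and over 10 libraries it was higher at the adjusted threshold.

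Lingo1, the co-receptor, was 51.8, 53.5 and 55.9 FPKM in C_W, 30.4, 30.5 and 5.77 in MS_W, and 58, 20.3 and 31.3 in MS_O, with a log2FC of −1.54 (adjusted p = 0.545) for MS_W vs C_W. Rtn4rl2, a receptor of the same family, was 18.3, 14.8 and 17.3 in C_W and 10.3, 8.9 and 0.499 in MS_W, with a log2FC of −1.68 (adjusted p = 0.548). Neither passed the test. Rtn4rl1, the third of the family, was 14.5 to 17.7 in C_W and 12.6 to 13.2 in MS_W, with a log2FC of −0.29 (adjusted p = 0.773). Of 6 effector and partner genes none met the criteria over 12 or 10 libraries, with medians of −0.26 and −0.11, and RhoA itself (Rhoa) was 18.1 to 22 FPKM in C_W and 21.6 to 27.5 in MS_W.

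**Figure D4:**
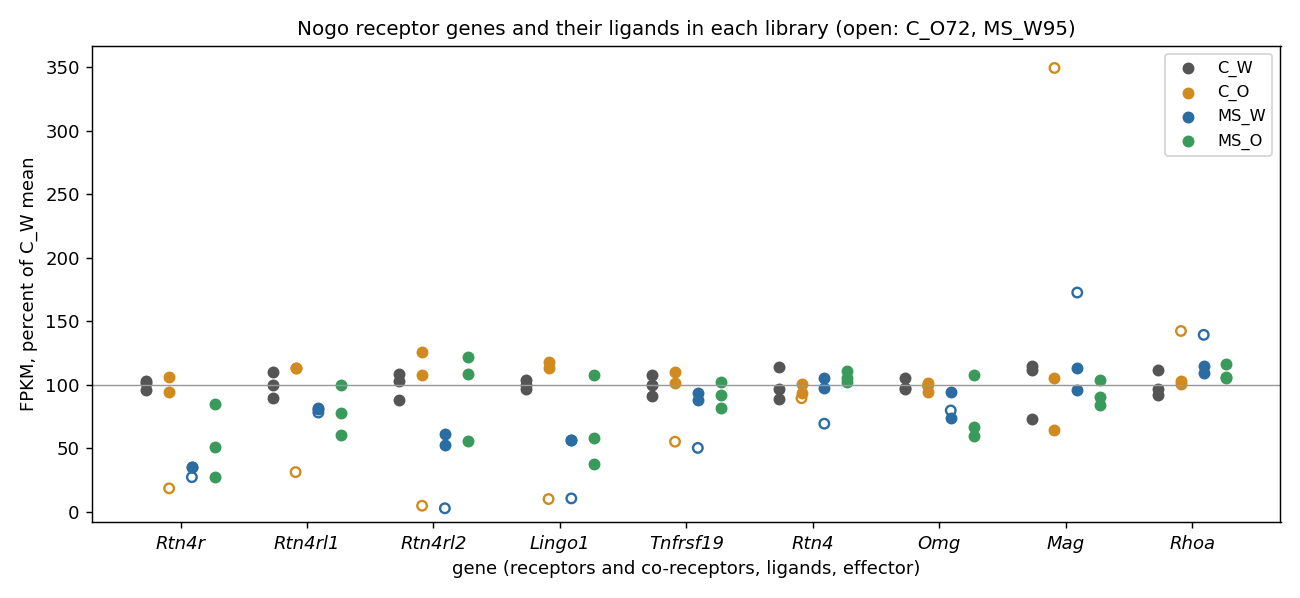
FPKM of Rtn4r, related receptors and co-receptors, ligands and Rhoa as a percent of the C_W mean (vertical axis), by group and library; open points are C_O72 and MS_W95. Rtn4r is at 27.4 to 35.1% of the C_W mean in MS_W and at 27.9 to 84.7% in MS_O, while Mag is high in C_O72.

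The MS_O vs. C_O comparison asks the same of mice on krill oil. Over 12 libraries none of the 8 genes passed the adjusted p in limma, edgeR or DESeq2 (0.00467% of all genes did in limma). None was lower at an unadjusted p under 0.05, against 2.18% of all genes, and none by the criteria of the study, against 0.753%. The median log2FC was −0.14, against 0.03 over all genes. The log2FC was below 0 for 5 of the 8, against 43.2% of all genes, and adjusted p values of the 8 were 0.856 to 0.946. The ranges overlapped for all 8, while 3.29% of all genes were lower without overlap, and C_O72 was the lowest C_O library for each of the 8. Over 10 libraries all 8 were lower in MS_O, against 39% of all genes. The median log2FC of the 8 was −0.65, with a range of −1.58 to −0.38. Adjusted p values were 0.329 to 0.497, with 0.0142% of all genes called. At an unadjusted p under 0.05, 5 of the 8 were lower, against 4.04% of all genes. In that form 2 of the 8, Fezf2 and Neurod6, met the criteria of the study, against 1.1% of all genes. Cux2, Lhx2 and Rtn4r had every MS_O value below both C_O values, 3 of 8 against 7.96% of all genes. Emx1, Tbr1 and Lhx2 changed sign with the pair of libraries, from 0.41, 0.79 and 0.49 to −0.56, −0.74 and −0.42.

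In the C_O vs. C_W comparison of unstressed mice, none of the 8 passed the adjusted p in limma, edgeR or DESeq2, and in limma 0% of all genes did. None was lower in C_O at an unadjusted p under 0.05, against 2.04% of all genes, or by the criteria of the study, against 0.897%. All 8 had a negative log2FC over 12 libraries, against 49.5% of all genes. The median of the 8 was −0.81, with a range of −1.58 to −0.22 and adjusted p values of 0.908 to 0.945. Without C_O72 and MS_W95 the median was 0.03 and 5 of the 8 were above 0, while 54.9% of all genes were below 0. Rtn4r was then 47.5 ± 4.12 FPKM in the 2 C_O mice and 47.3 ± 1.65 in C_W, a log2FC of 0.00 (SE 0.345). The largest remaining difference was that of Tbr1, at 26.8 ± 3.52 against 14.8 ± 10.1 FPKM, with a log2FC of 0.98 (SE 0.474). Fezf2, Neurod6 and Neurod2 remained below 0 without C_O72 and MS_W95, at −0.48, −0.32 and −0.14.

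The MS_O vs. MS_W comparison asks what krill oil did under stress. Over 12 libraries 7 of the 8 genes had a higher mean log2 level in MS_O, while 53.7% of all genes had a lower one. The median log2FC of the 8 was 0.57, against −0.02 over all genes, and Neurod2 was at −0.06. None passed the adjusted p in limma, edgeR or DESeq2 (0.00467% of all genes did in limma), and none met the criteria of the study, against 1.43% of all genes higher by those criteria. Cux2 alone was higher at an unadjusted p under 0.05, 1 of 8 against 2.63% of all genes. Cux2 and Emx1 were higher in every MS_O library than in every MS_W library, 2 of 8 against 4.64% of all genes. For Cux2 the means were 5.95 ± 0.4 and 3.74 ± 0.61 FPKM, with a log2FC of 0.56 (SE 0.228, adjusted p = 0.81). Over 10 libraries its log2FC was 0.48 (SE 0.112, adjusted p = 0.217), where 0.269% of all genes were called. The same 2 genes were without overlap in that form, against 9.32% of all genes, while Fezf2 and Neurod6 were at −0.16 and −0.10.

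The difference between the effect of stress on krill oil and its effect on water was tested as an interaction. It was above 0 for all 8 genes over 12 libraries, while 52.6% of all genes were below 0. The median of the 8 was 1.73 on the log2 scale, with a range of 0.34 to 2.06. Adjusted p values were 0.665 to 0.849, with 0% of all genes called. Cux2 alone was above 0 at an unadjusted p under 0.05, 1 of 8 against 3.6% of all genes, and none of the 8 passed in edgeR or DESeq2. Over 10 libraries the median was 0.35, Tbr1 was at −0.61, and adjusted p values were 0.648 to 0.975. For Cux2 the interaction was 0.77 (SE 0.323) over 12 libraries and 0.38 (SE 0.158) over 10. A difference in the response to stress between the oil and water groups was not shown for any of the 8 genes.

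The MS_O group held 1 library near the unstressed level and a pair below it. Relative to the C_W mean, the median over the 8 genes was 85.4% in MS_O13, 45.7% in MS_O46 and 60.6% in MS_O78. Fezf2 was 66.5% in MS_O13 and 4.49% and 11.1% in the other two, Neurod6 was 83.1%, 13.3% and 18.8%, and Rtn4r was 84.7%, 27.9% and 51.3%. Cux2 differed least, at 86%, 75.5% and 78.7%. For 6 of the 8 genes, all but Tbr1 and Neurod2, the 6 highest values were those of C_W1, C_W64, C_W70, C_O15, C_O30 and MS_O13. The total of estimated counts was 56057766 to 75678721 in those 6 libraries and 50912906 to 61608502 in the other 6. Olfactory bulb genes summed to 252 FPKM in MS_O46 and 249 in MS_O78, against 46 in MS_O13 and 4.46 to 96.9 in the other groups. The part of this regional difference in the spread within MS_O was not tested.

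**Figure D5:**
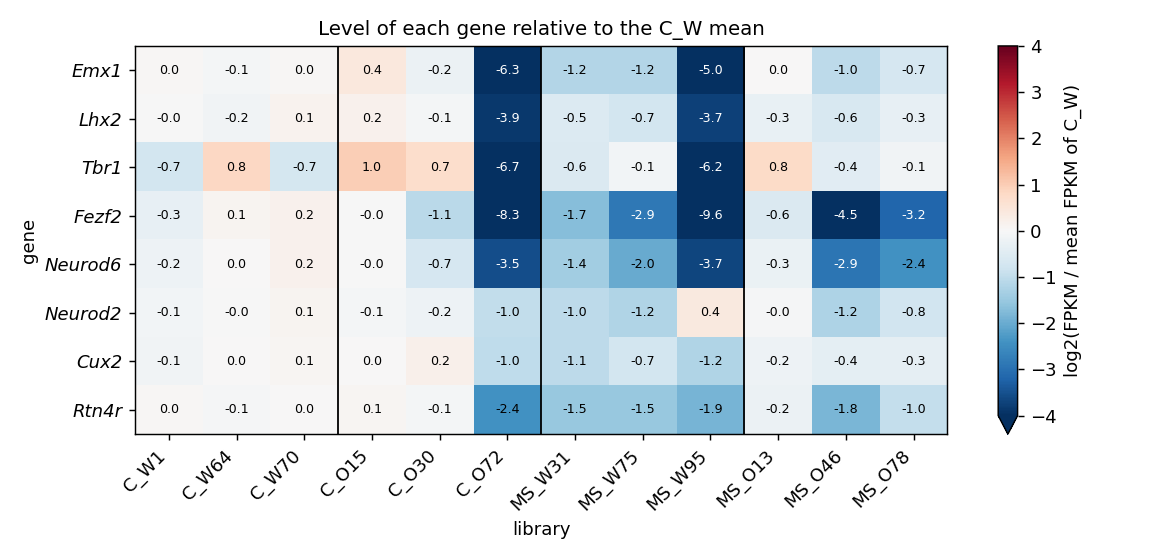
Level of each of the 8 genes in each library as log2 of its FPKM over the C_W mean (colour and printed value, scale limited at −4), with lines between the groups. C_O72 and MS_W95 are darkest for Fezf2, Tbr1 and Emx1, MS_O46 and MS_O78 are low in Fezf2 and Neurod6, and MS_O13 is near 0 for most genes.

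Likeness was measured as the root mean square (RMS) difference between log2(FPKM + 1) profiles, each centred on its own mean, over 13621 genes with a mean of at least 1 FPKM. It is a description that all libraries share, with C_O72 and MS_W95 weighing most. Fezf2 and Neurod6 were each the nearest gene to the other, with an RMS difference of 0.214 over 12 libraries and 0.183 over 10. Emx1 and Lhx2, the pair of pallial progenitor genes, differed by 0.215 over 12 libraries, and Tbr1 and Neurod2 were farthest apart at 1.603. Neurod2 and Emx1 differed by 1.001 over 12 libraries but by 0.155 over 10, where they were the closest pair of the 8.

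Outside the 8, the nearest to Emx1 were Camk2n1, an inhibitor of CaM kinase II (0.177), and Inka2 (0.178). Lhx2 was followed most closely by Cckbr, the cholecystokinin B receptor (0.134), and the immediate early gene Egr1 (0.143). For Cux2 they were Cabp1, a neuronal calcium-binding protein (0.137), and Faah, which degrades anandamide (0.147). Neurod2 was nearest to Nptx1, a synaptic pentraxin (0.179), and Sel1l3 (0.191). Tbr1 had the largest difference from its nearest genes, the muscarinic receptor gene Chrm1 at 0.491 and Stum at 0.505. The measure is not scaled to how widely a gene varies. The RMS of the centred profile itself was 1.533 for Tbr1, the widest of the 8, and 0.394 for Cux2. For Rtn4r they were Pamr1 (0.206) and Hkdc1 (0.253), and the second gene to Neurod6 was Gm19410 (0.220). The mean profile of the 8 was nearest to Inka2 (0.190), Ier5 (0.195) and C130074G19Rik (0.201), then Chrm3, Tmem132d, Lmo4, Vipr1 and Wnt9a (0.212 to 0.219). Over 10 libraries it was nearest to Nptx1 (0.079).

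The other genes of the projection neuron programme were taken from lists chosen, like the 8 genes, with earlier results of these data known. The shares of all genes beside their counts are therefore a description only. Of 29 further transcription factors of pallial neurons, 21 had a negative log2FC for MS_W vs C_W, against 37.9% of all genes. The median of the list was −0.30, and 5 were lower by the criteria of the study, against 2.1% of all genes. Among these 5, Ldb2, a LIM-domain cofactor, was 9.81 to 17.2 FPKM in C_W and 3.65 to 4.12 in MS_W, with a log2FC of −1.52 (adjusted p = 0.451). Tshz3, a zinc finger factor of deep layers, had a log2FC of −1.0 (adjusted p = 0.326), Rorb, of layer 4, −0.80 (adjusted p = 0.36), and Lmo4 −1.33 (adjusted p = 0.468). The fifth was Nfix. Over 10 libraries 20 of the 29 were negative, against 40.4% of all genes, with a median of −0.35. There, 5 were again lower by the criteria of the study, against 2.33% of all genes, with Zbtb18 and Zfpm2 in place of Rorb and Lmo4, and 2, Bcl11b and Lmo3, were higher, against 3.42%. Over 12 libraries the log2FC of Id2 and Lmo3 was −0.10 and 0.40. Bcl11b, the partner of Fezf2 in corticospinal neurons, which striatal neurons also express, was 5.89 to 7.61 FPKM in C_W and 13.5 and 15.1 in MS_W31 and MS_W75, and it was higher over 10 libraries at the adjusted threshold.

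Of 19 effector genes of cortical layers, 14 had a negative log2FC for MS_W vs C_W, against 37.9% of all genes. The median of the list was −0.58, and 1, Slc17a7, was lower by the criteria of the study, against 2.1% of all genes. Over 10 libraries 10 of the 19 were negative, against 40.4% of all genes, with a median of −0.15. There, 3 were lower by the criteria, Slc17a7, Nrgn and Cck, against 2.33% of all genes, and 1, Nxph4, was higher, against 3.42%. Slc17a7, the vesicular glutamate transporter VGLUT1, was 254 to 290 FPKM in C_W and 106, 100 and 41.5 in MS_W, with a log2FC of −1.82 (adjusted p = 0.425). Nrgn and Camk2a, a calmodulin-binding protein and a kinase of forebrain dendrites, had log2FC values of −2.57 (adjusted p = 0.592) and −1.89 (adjusted p = 0.607). Pcp4, a calmodulin regulator that was also among the 3 most abundant genes of the list, was 138 to 213 FPKM in C_W and 243 to 308 in MS_W. Its log2FC was 0.59 (adjusted p = 0.306). The 9 tested progenitor and early pallial genes had a median of 0.16 over 12 libraries and 0.37 over 10. In both forms 1, Neurog2, was lower by the criteria, against 2.1% and 2.33% of all genes, at 0.133 to 0.265 FPKM in C_W and 0.0526 to 0.142 in MS_W. Of 8 partners and inhibitors of the NeuroD proteins, Id4, which blocks basic helix-loop-helix factors, was higher by the criteria over 12 libraries, against 2.5% of all genes, at 12.3 to 18 FPKM in C_W and 26.3, 34.7 and 35.3 in MS_W. The log2FC of Id4 was 1.00 (SE 0.161, adjusted p = 0.105). Every MS_W library was above every C_W library, which held for 16.3% of all genes. Over 10 libraries no gene of that list met the criteria of the study, and the list median was 0.12, against 0.17 over 12.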

How the data were processed

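Brain poly(A) RNA of 12 mice was sequenced as paired-end reads from a dUTP-marked library. The authors used HISAT for alignment to mouse build mm10, StringTie for assembly and Ballgown for expression; the submitters' processing notes name cutadapt 1.9, HISAT2 2.0.4, StringTie 1.3.4d, edgeR and DESeq2. The deposited FPKM values list a gene without an estimate at 0.0001. The authors also deposited estimated count values per gene, derived from coverage and unscaled, used here for depth and as an alternative.

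Genes averaging 0.1 FPKM or more over the libraries were tested as log2(FPKM + 1) with limma 3.58.1 in R 4.3.3, in 1 fit over the 4 groups, with Benjamini-Hochberg adjustment over all genes. Alternatives were edgeR 4.0.16 and DESeq2 1.42.0 on rounded estimated counts, other pseudocounts and filters, fits of 2 groups only, and leaving out libraries. The fits were tested on simulated data with known changes. In the limma simulation the noise was set below the residual spread of these data, and no library had a shift shared by many genes. The check therefore does not cover libraries such as C_O72 and MS_W95. Genes named outside the 8 were the 3 most abundant of each list, up to 3 past a threshold with the smallest p, and the nearest profiles; Gabra6, Cbln3, Neurod1, Bcl11b and genes of the Nogo pathway were added after their values were seen. The 8 genes and all lists were chosen with earlier results of these data known.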

Additional observations from a re-analysis of the deposited data

How the results depend on the processing

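The 8 genes in 5 comparisons gave 832 values under the alternatives, of which 784 kept their direction and their side of the adjusted threshold, 44 changed sign, 4 newly passed the threshold and 0 lost it. Without C_O72 and MS_W95, C_O and MS_W hold 2 mice each and share the spread estimated over all groups. No paired analysis was possible because the groups share no replicate numbers. For MS_W vs C_W, every alternative kept all 8 log2FC values below 0. There, 1 gene passed the adjusted threshold with DESeq2 (Cux2, −1.08, adjusted p = 0.0293), with only the 2 groups fitted (Rtn4r, −1.57, adjusted p = 0.0105) and over 10 libraries (Cux2, −0.76, adjusted p = 0.0184), and 0 to 1 gene passed when single libraries were left out. The lowest and highest adjusted p over all alternatives were 0.0184 and 0.674 for Cux2 and 0.0105 and 0.738 for Rtn4r. By the criteria of the study, the count for MS_W vs C_W was 5 over 10 libraries and 1 to 5 with single libraries left out. It was 2 over 10 libraries for MS_O vs C_O. With single libraries left out it was 0 to 1 for C_O vs C_W (1 without C_O15) and 0 to 1 for MS_O vs MS_W (1 without C_O72).

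For MS_O vs C_O, the log2FC with edgeR, with DESeq2 and over 10 libraries was −0.13, −0.14 and −0.56 for Emx1, −0.18, −0.19 and −0.74 for Tbr1, and −0.01, −0.02 and −0.42 for Lhx2. For C_O vs C_W, Tbr1 was at 0.30 with edgeR and with DESeq2 and at 0.98 over 10 libraries. Emx1, Cux2, Lhx2 and Rtn4r were at 0.09, 0.10, 0.05 and 0.00 over 10 libraries. For MS_O vs MS_W, 10 libraries gave −0.16 for Fezf2, 0.41 for Neurod2 and −0.10 for Neurod6, and the interaction of Tbr1 was −0.61. With single libraries left out, the ranges that crossed 0 for MS_O vs C_O were −0.56 to 1.04 (Emx1), −1.58 to 0.30 (Fezf2), −0.74 to 1.62 (Tbr1), −0.54 to 0.02 (Neurod2), −1.40 to 0.18 (Neurod6), −0.38 to 0.14 (Cux2), −0.42 to 1.00 (Lhx2) and −0.98 to 0.21 (Rtn4r). For C_O vs C_W they were −1.51 to 0.09 (Emx1), −1.38 to 0.98 (Tbr1), −0.42 to 0.10 (Cux2), −1.37 to 0.05 (Lhx2) and −1.19 to 0.00 (Rtn4r). For MS_O vs MS_W they were −0.29 to 1.02 (Fezf2), −0.36 to 0.41 (Neurod2) and −0.29 to 0.93 (Neurod6). The cause was not tested.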

Other observations

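Emx2, the relative of Emx1, was 2.19 to 3.41 FPKM in the 10 libraries other than C_O72 and MS_W95, where it was 0.0424 and 0.487.

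The choroid plexus genes, of which Ttr is the best known, differed widely between libraries of 1 group. Their summed FPKM was 840 in C_W1, 816 in C_O15 and 623 in MS_O13, 4823 in C_O72 and 1809 in MS_W95, and 5.21 to 61.8 in the other 7 libraries. These genes were chosen after their values were seen.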
